A study of Mus musculus with 12 samples.

Results

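The constitutive proteasome genes were followed through 4 groups of mouse bone marrow mesenchymal stem cells (MSCs), multipotent stromal cells that can turn into matrix-producing myofibroblasts. Members were the protein-coding genes whose symbol begins with Psma, Psmb, Psmc, Psmd, Psme, Psmf or Psmg, without pseudogenes (names with -ps) and without the inducible catalytic genes Psmb8, Psmb9 and Psmb10. This rule, which uses gene names and no measured value, gave 47 of 55401 genes. C57BL/6 MSCs from a commercial supplier were left untreated (Control), given TGF-β1 at 5 ng/mL (TGF-β1), or given the same TGF-β1 with culture supernatant of monocytic (TGF-β1/M-MDSC supernatant) or granulocytic (TGF-β1/G-MDSC supernatant) myeloid-derived suppressor cells grown from bone marrow. Each group had 3 poly(A) RNA libraries, and the study asked whether the supernatants alter the TGF-β1 response of MSCs. No group received a supernatant without TGF-β1, so a supernatant's effect was measured only on top of TGF-β1.

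The 26S proteasome degrades proteins that carry ubiquitin chains. Its 20S core is a barrel of α and β rings, in which Psmb5, Psmb6 and Psmb7 carry the chymotrypsin-like, caspase-like and trypsin-like active sites, and its 19S regulatory particle binds, deubiquitinates and unfolds substrates with a ring of ATPases. Interferons replace the catalytic subunits with Psmb8, Psmb9 and Psmb10 and raise Psme1 and Psme2, which together form PA28αβ, an activator cap linked to the making of peptides for MHC class I.

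By role, the members were 8 α genes, 8 β genes, 6 ATPases (Psmc1 to Psmc6) and 11 non-ATPases of the 19S particle, 7 assembly chaperones (Psmg1 to Psmg4, Psmd5, Psmd9 and Psmd10), 3 genes of the interferon-linked activator (Psme1, Psme2 and Psme2b) and 3 other regulators (Psme3, Psme4 and Psmf1). Psmc3ip, which acts in meiotic recombination and is no subunit, matched by name only. A total of 45 members had an FPKM (fragments scaled by transcript length and library size) of at least 1 in at least 3 libraries and were tested among 12016 genes. The members not tested were Psma8, the germ-cell α gene, with 0 counts in every library, and Psmb11, the thymic catalytic gene, with 0 to 8 counts.

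Promoters are shown for Psme1 and Psme2, whose RNAs were among those that moved most with the treatments, and, as 40-base stretches, for the other members that held the same element. Of the 47 members, 39 had a promoter of 300 bases (250 before and 50 after the start) in RefSeq's annotation of GRCm38.p6. The core of the interferon-stimulated response element, GAAA followed by any 2 bases and GAAA, was searched for on both strands and is in capitals; capitals that read TTTC first hold it on the opposite strand. The stretches are Psme1, chr14:55578244-55578543 (+ strand), Psme2, chr14:55590972-55591271 (− strand), Psmb3, chr11:97703256-97703295 (+), Psmd4, chr3:95042670-95042709 (−), Psmd9, chr5:123228016-123228055 (+) and Psmg4, chr13:34162964-34163003 (+).
Psme1: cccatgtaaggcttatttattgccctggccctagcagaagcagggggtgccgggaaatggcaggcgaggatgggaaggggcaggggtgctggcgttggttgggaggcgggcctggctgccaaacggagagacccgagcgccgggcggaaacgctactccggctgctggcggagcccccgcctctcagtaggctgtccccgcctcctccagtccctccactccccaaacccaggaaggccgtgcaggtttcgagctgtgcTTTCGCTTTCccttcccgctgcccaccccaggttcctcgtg
Psme2: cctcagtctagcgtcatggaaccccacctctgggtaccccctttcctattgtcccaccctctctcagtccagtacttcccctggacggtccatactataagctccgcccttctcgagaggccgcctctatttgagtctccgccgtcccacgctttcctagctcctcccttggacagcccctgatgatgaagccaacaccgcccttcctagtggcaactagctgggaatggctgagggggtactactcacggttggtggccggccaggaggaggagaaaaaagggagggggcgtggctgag
Psmb3: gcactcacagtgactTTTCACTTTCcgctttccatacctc
Psmd4: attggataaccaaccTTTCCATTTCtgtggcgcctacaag
Psmd9: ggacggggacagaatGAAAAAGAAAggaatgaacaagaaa
Psmg4: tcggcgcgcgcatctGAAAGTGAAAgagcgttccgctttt

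The core was found in 5 of the 39 member promoters (12.8%) and in 3.99% of the 27025 genes with a promoter in the same annotation. In Psme1 it began at base 10 after the start, and in Psme2 these letters were not in the window. The antioxidant and NFE2L1-type core TGACNNNGC was found in 6 member promoters (15.4%, against 13.99% of all genes), namely Psmb5, Psmb6, Psmc6, Psmd12, Psmd9 and Psme4. The NF-Y box CCAAT was found in 14 (35.9%, against 41.1%). These matches describe the letters and are no measure of binding.

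The libraries held from 73977669 to 84565450 counts over all genes, and mitochondrial genes took 2.81% to 3.79%. Of the 7 MSC markers on the list, 5 or 6 had an FPKM of at least 1 in every library of each group, and the summed FPKM of Kit and Pecam1, which mark other cells, was at most 0.218. The MSC markers were not level, since Ly6a, which encodes Sca-1, had 245 ± 5.35 FPKM (SD, n = 3) in Control, 16.2 ± 2.92 with TGF-β1, 92.5 ± 10.1 with M-MDSC and 66.9 ± 3.20 with G-MDSC supernatant, and so was lowest with TGF-β1, as were Psme1 and Psme2 below. It fell by 3.86 on the log2 scale with TGF-β1 and rose by 2.49 and 2.02 with the supernatants. Thy1 fell by 0.99 with TGF-β1 and did not pass the test with either supernatant against TGF-β1. The other MSC markers tested went the opposite way with TGF-β1, Cd44 rising by 0.48, Itgb1 by 0.66, Nt5e by 1.351 and Pdgfrb by 0.52. With M-MDSC and G-MDSC supernatant against TGF-β1, Pdgfrb fell by 0.24 and 0.41, and Nt5e rose by 0.69 with G-MDSC supernatant. Summed over the 7 MSC markers, FPKM was 568 to 583 in Control, 496 to 508 with TGF-β1, 549 to 579.8 with M-MDSC and 527 to 552 with G-MDSC supernatant. Summed over 8 kidney tubule genes, FPKM was at most 0.201 in Control and TGF-β1 libraries, but 68.6 to 80.0 with G-MDSC supernatant and 32.9 to 104 with M-MDSC supernatant. Summed over 10 myeloid genes, of which Mpo and Elane define granulocyte precursors and were at 0, it was 4.20 to 4.38 in Control, 1.17 to 1.246 with TGF-β1, 2.03 to 4.43 with M-MDSC and 3.41 to 6.95 with G-MDSC supernatant. Its members moved in different directions. Most of the Control sum was Ly6g and Ly6c2, with mean FPKM of 1.83 and 1.71, which fell to 0.068 and 0.045 with TGF-β1, whereas Csf1r rose by 0.76 on the log2 scale. Lyz2, which encodes lysozyme, had at most 0.094 FPKM with TGF-β1, 0.651 to 2.29 with M-MDSC and 1.56 to 2.11 with G-MDSC supernatant, and rose with each (adjusted p = 0.0262 and 0.0183). The part of these markers in the results below was not tested. In bulk libraries, fewer cells of a type and less RNA per cell cannot be told apart. The labels do not say whether libraries came from separate cultures, so p-values measure only the spread between these libraries.

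The subunits of the core and of the 19S particle were abundant and nearly level across the groups. Mean FPKM over all libraries ran from 29.5 (Psma3) to 117 (Psma6) in the α ring, from 72.7 (Psmb3) to 114 (Psmb4) in the β ring, from 41.5 (Psmc2) to 123 (Psmc5) among the ATPases and from 24.3 (Psmd11) to 132 (Psmd7) among the non-ATPases. Although each ring holds its subunits in equal number, FPKM of the highest gene stood 3.96-fold above the lowest within the core and 5.44-fold within the 19S particle. FPKM divides by a gene length that was not checked here, so these ratios are no direct measure of unequal RNA levels. Counts of the α genes tested ran from 9374 to 23022 over all libraries. Psmd7 is the partner of the deubiquitinase Psmd14, and Psmd11 clamps the particle to the core. Assembly chaperones, which leave the finished complex, had from 5.12 (Psmd9) to 27.6 (Psmg4), with a median of 11.96 FPKM over genes, against 79.5 in the core and 59.2 in the 19S particle, and Psmg4 stood above Psmd11. The activator genes had 13.6 (Psme2b) to 21.1 (Psme2). Among the other regulators, the inhibitor-like Psmf1 had 9.47 and Psme3, which forms the nuclear cap PA28γ, had 60.7.

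**Figure D1:**
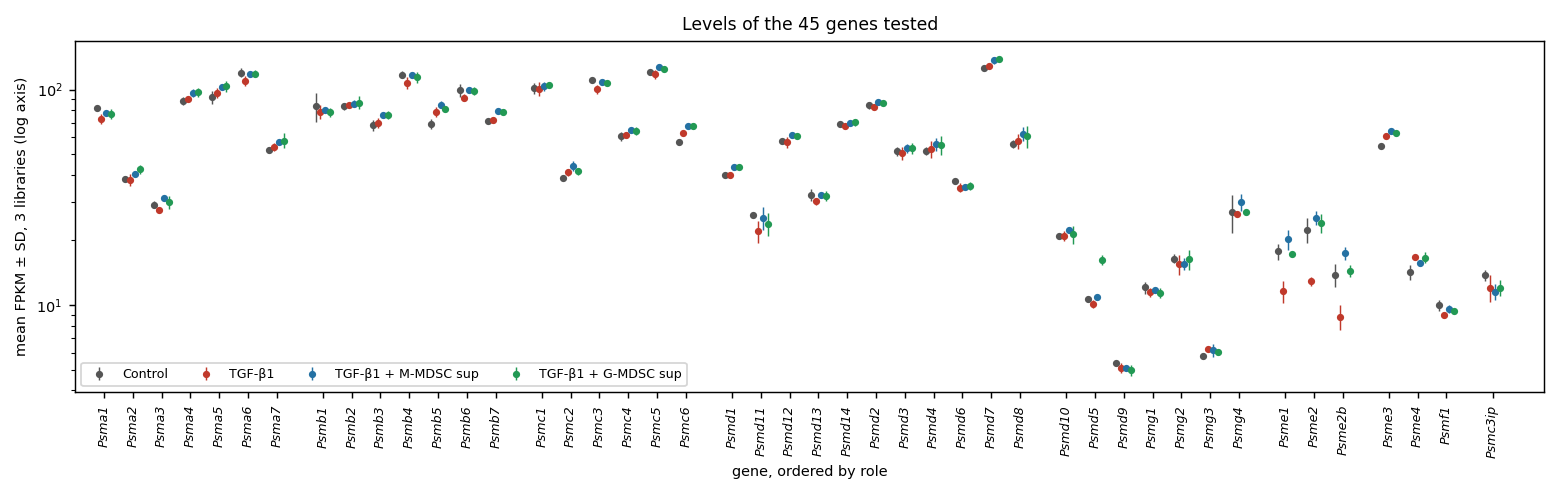
Mean FPKM (log axis) with SD over 3 libraries for the 45 members tested, ordered by role from the α ring on the left to Psmc3ip on the right, in the 4 groups. The 4 points of most genes lie close together, whereas Psme1, Psme2 and Psme2b are lowest with TGF-β1, and Psmd5 is highest with TGF-β1/G-MDSC supernatant.

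The order of the members by level was nearly the same in the 4 groups, with Spearman's rho of 0.994 to 0.998 between group means over 45 members (a description, since genes of the same libraries are not independent). The ratio of the highest to the lowest group mean had a median of 1.11 in the core and 1.08 in the 19S particle, and 1.23 over all genes tested. It was 1.74 to 1.98 for the 3 activator genes, and the next highest was 1.60 for Psmd5.

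Summed over the 14 core genes tested, FPKM was 1096 ± 48.9 (SD, n = 3) in Control, 1073 ± 36.6 in TGF-β1, 1150 ± 6.39 in TGF-β1/M-MDSC supernatant and 1142 ± 56.0 in TGF-β1/G-MDSC supernatant libraries. The 17 genes of the 19S particle gave sums of 1122 ± 5.49, 1110 ± 37.5, 1182 ± 19.8 and 1172 ± 29.8 in the same order. The sums of both complexes stayed close in every group, but they add different numbers of genes and so measure no balance. The activator genes did not follow them, since Psme1 and Psme2 together had 3.66% ± 0.395 of the core's FPKM in Control, 2.27% ± 0.0974 with TGF-β1, 3.96% ± 0.309 once M-MDSC supernatant was added and 3.60% ± 0.0706 for G-MDSC supernatant.

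**Figure D2:**
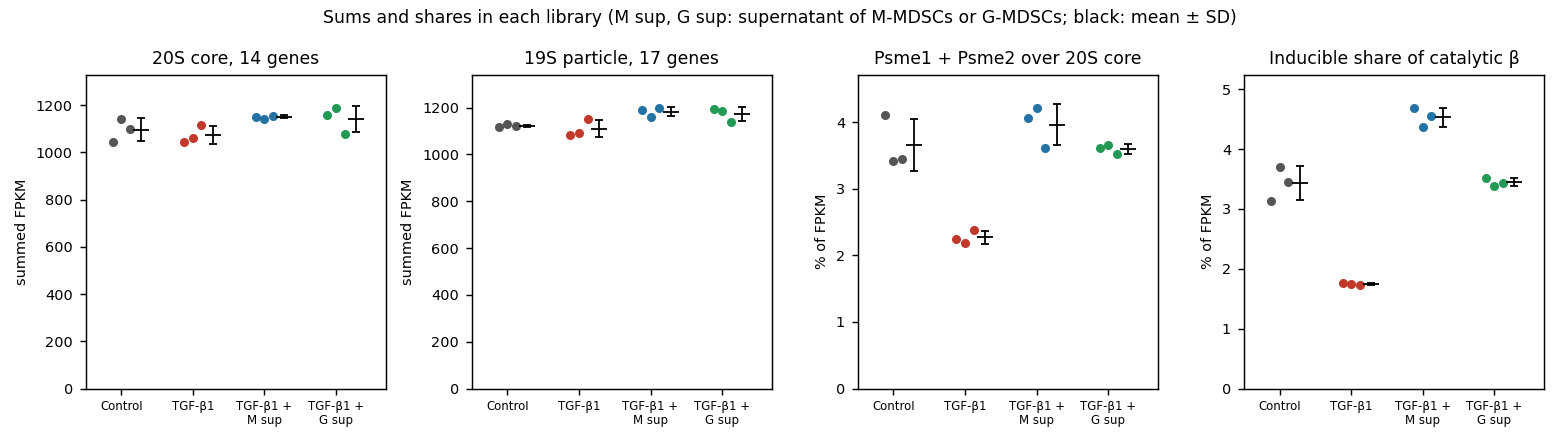
Summed FPKM of the 14 core genes and of the 17 genes of the 19S particle, FPKM of Psme1 plus Psme2 as a percent of the core's, and the inducible share of catalytic β FPKM, each per library with the group mean and SD (black). The sums differ little between groups, and both shares are lowest in the 3 TGF-β1 libraries.

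To see what TGF-β1 did, its libraries were compared with Control. Psme1, Psme2 and Psme2b fell, 5 members rose by small steps, and the other 37 did not pass the test. A member was called at an adjusted p under 0.05, in edgeR's quasi-likelihood test with Benjamini-Hochberg adjustment over all genes tested. Of the 45 members, 8 were called, where 34.0% of all genes tested were called (16.1% higher and 17.9% lower). With counts scaled by library size alone, which moved the median of all genes by −0.058, or with log2(FPKM + 1) in limma, 10 members were called, 4 higher and 6 lower, where 34.9% and 35.0% of all genes were called (12.3% higher and 22.7% lower in each): Psmc2 was no longer among them, and Psma1, Psmc3 and Psmf1 were called lower. Psmc3 is uncertain, since it overlaps Slc39a13 on the opposite strand, which had 32.9% of its count. By the study's own rule, a fold above 2 or below 0.5 with an unadjusted p under 0.05, 0 members were called, and 6.74% of all genes were.

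Psme1, the α subunit of PA28, had FPKM of 17.5, 19.3 and 16.2 in Control and of 11.3, 10.4 and 13.0 with TGF-β1. The groups did not overlap, and the log2 fold change was −0.56 (SE 0.099, adjusted p = 0.00129). Psme2, the β subunit, had 25.5, 19.7 and 21.7 in Control and 12.2, 12.8 and 13.5 with TGF-β1. Every TGF-β1 library lay below every Control library, and the log2 fold change was −0.74 (SE 0.10, adjusted p = 0.000234). Psme1 (chr14:55578123-55581528, + strand) and Psme2 (chr14:55587441-55591113, − strand, GRCm38, GENCODE) are close neighbours on chromosome 14.

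Psme2b, a copy of Psme2 on chromosome 11 (chr11:48945354-48946190, − strand), had 12.7, 15.7 and 12.8 in Control and 8.53, 7.83 and 10.03 with TGF-β1, a log2 fold change of −0.58 (SE 0.12, adjusted p = 0.00261). Its transcript shares 789 of 794 aligned bases with that of Psme2 (99.4%), and it overlaps 9930111J21Rik1 on the same strand, whose count was 36.4% of its own. Psme2b is therefore uncertain, since counting could have split reads between these genes.

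The members that rose belonged to the β ring, the ATPases and the other regulators. Psmb5, which carries the chymotrypsin-like site, had 65.6, 73.2 and 69.4 in Control and 80.0, 74.2 and 82.1 with TGF-β1. Its log2 fold change was 0.24 (SE 0.054, adjusted p = 0.00559), and the groups did not overlap. The ATPase Psmc6 had 58.7, 55.2 and 57.1 against 63.9, 61.8 and 63.8, without overlap (0.20, SE 0.035, adjusted p = 0.000970). Psmc2, another ATPase, rose by 0.15 (SE 0.047, adjusted p = 0.0288), again without overlap, a call lost in 11 of the 22 alternative settings (adjusted p of 0.0168 to 0.176 over all of them). Psme3 had 54.3, 55.7 and 55.0 against 60.2, 61.0 and 60.7 (0.20, SE 0.034, adjusted p = 0.000914). Psme4, which forms the PA200 cap, had 14.9, 12.9 and 14.7 against 17.1, 16.5 and 16.1 (0.29, SE 0.062, adjusted p = 0.00435). In each of these 5 genes every TGF-β1 library lay above every Control library, and the changes were at most 1.22-fold.

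The other catalytic subunits did not pass the test. Psmb6 had 92.9, 106 and 99.5 in Control and 88.6, 91.9 and 95.2 with TGF-β1 (log2 fold change −0.06, 95% interval −0.18 to 0.06). Psmb7 had 72.0, 72.5 and 71.0 against 70.2, 71.7 and 75.2 (0.07, interval −0.014 to 0.15). Its values here and below are uncertain, since it overlaps Nek6 on the opposite strand, which had 32.6% of its count, and the strand setting of the counting is not given. The libraries of both groups overlapped for each gene. The intervals of all core members together reached from 0.850-fold (Psmb1) to 1.28-fold (Psmb5), and those of the 19S particle from 0.737-fold (Psmd11) to 1.24-fold (Psmd8). The median log2 fold change was 0.06 in the core and 0.04 in the 19S particle, against 0.00048 over all genes tested, and both medians turned negative when counts were scaled by library size alone or FPKM was used. Of the 45 members, 6 did not overlap on the higher side and 8 on the lower side, while 16.6% and 30.0% of all genes did so. Here and below, overlap was judged on FPKM, which is scaled by library total. The test scales libraries differently, so overlap and test can point in different directions.

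**Figure D3:**
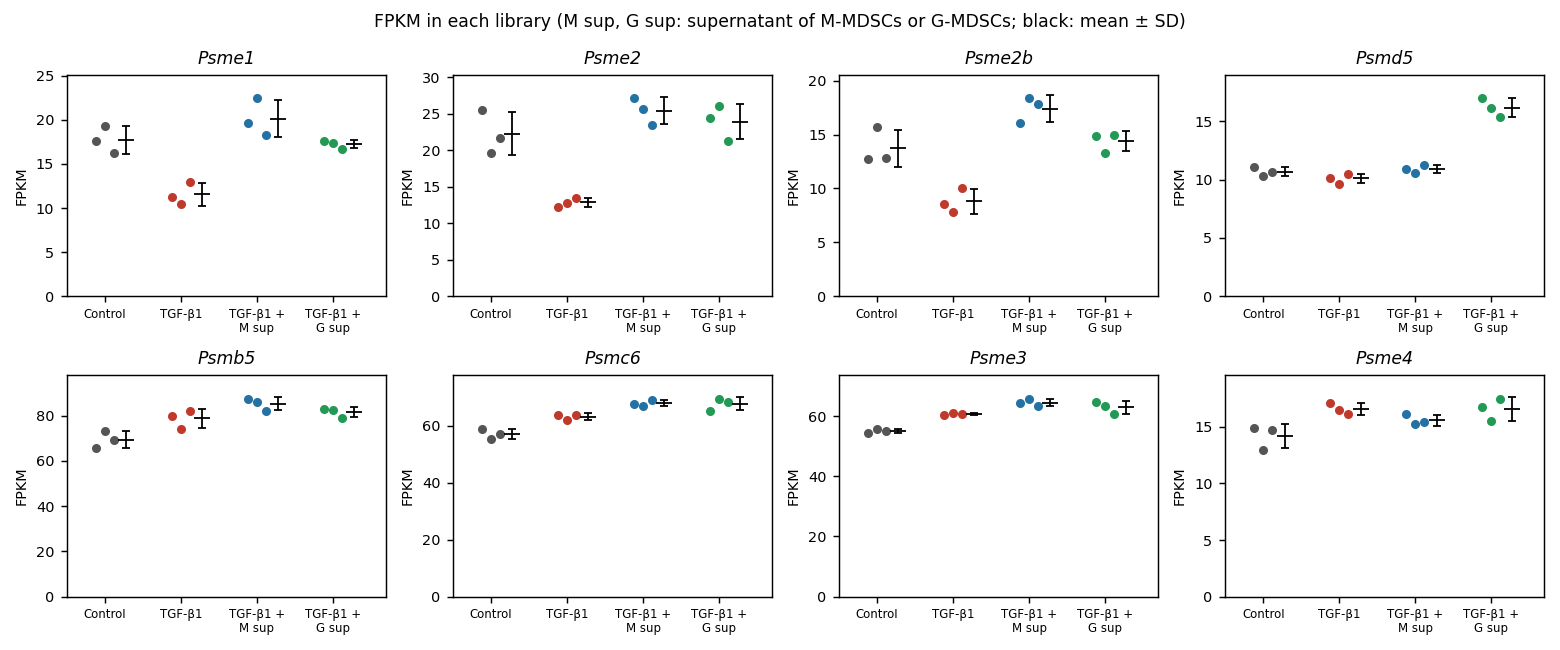
FPKM in each of the 12 libraries for 8 members, with group mean and SD (black); every vertical axis starts at 0. Psme1, Psme2 and Psme2b are lowest in the 3 TGF-β1 libraries, Psmd5 is highest in the 3 G-MDSC libraries, and Psmb5, Psmc6, Psme3 and Psme4 differ by small steps.

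The TGF-β1/M-MDSC supernatant group was compared with TGF-β1 alone to see what that supernatant changed. Psme1, Psme2 and Psme2b rose, and no other member passed the test, although most of the core and the 19S particle had slightly higher values. In all, 3 of 45 members were called, where 4.78% of all genes were called (2.83% higher, 1.95% lower). The libraries shown for TGF-β1 serve as the reference of both supernatant comparisons and as the treated group of the comparison with Control, so these comparisons are not independent.

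Psme1 had FPKM of 19.6, 22.4 and 18.3 with M-MDSC supernatant, above all 3 TGF-β1 libraries, and rose by 0.78 on the log2 scale (SE 0.10, adjusted p = 0.000908). Psme2 had 27.1, 25.7 and 23.4 and rose by 0.96 (SE 0.10, adjusted p = 0.000231), or 1.95-fold. Psme2b, uncertain as above, had 16.0, 18.4 and 17.8 and rose by 0.96 (SE 0.12, adjusted p = 0.000597). None of the 3 overlapped with TGF-β1 alone.

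For Psmb5 the libraries had 87.5, 86.1 and 82.1 with M-MDSC supernatant, which overlapped TGF-β1 alone, and the log2 difference was 0.09 (interval −0.03 to 0.21, adjusted p = 0.445). Psmb6 had 102, 96.3 and 101, a difference of 0.10 (interval −0.027 to 0.22). Psmb7 had 81.7, 77.6 and 80.3, a difference of 0.12 with an adjusted p of 0.121. Psmb6 and Psmb7 lay above TGF-β1 alone in every library, and neither passed the test. The median log2 fold change was 0.08 in the core and 0.07 in the 19S particle, where it was −0.01 over all genes. Values were above 0 for 12 of the 14 core genes and for 16 of the 17 genes of the 19S particle. Of the 45 members, 21 did not overlap on the higher side, which held for 13.4% of all genes tested, and 1 on the lower side, against 10.6%. In the core no interval reached above 1.22-fold (Psma3) or below 0.861-fold (Psmb1).

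With TGF-β1/G-MDSC supernatant, 4 members rose against TGF-β1 alone, namely the 3 activator genes and Psmd5, a chaperone that helps to assemble the base of the 19S particle. Called members were 4 of 45, and called genes 5.56% of all genes tested (3.10% higher, 2.46% lower).

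Psme1 had 17.6, 17.4 and 16.7 with G-MDSC supernatant and rose by 0.55 (SE 0.099, adjusted p = 0.00771). Psme2 had 24.3, 26.1 and 21.3 and rose by 0.87 (SE 0.10, adjusted p = 0.000501). Psme2b had 14.9, 13.3 and 15.0 and rose by 0.68 (SE 0.12, adjusted p = 0.00541). All 3 lay above every TGF-β1 library. The study's fold rule called 0 members in this comparison, while 2.17% of all genes passed it, and 0 members with the supernatant of M-MDSCs, while 2.18% did.

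Psmd5 (chr2:34849734-34874968, − strand, GRCm38, GENCODE) had 10.2, 9.66 and 10.5 with TGF-β1 and 16.96, 16.1 and 15.4 with G-MDSC supernatant. The log2 fold change was 0.65 (SE 0.049, adjusted p = 1.2e-05), or 1.57-fold, and the groups did not overlap. With M-MDSC supernatant it had 10.9, 10.6 and 11.3, and in Control 11.04, 10.3 and 10.7. The 3 G-MDSC libraries were thus above all 9 others. It overlaps Cutal on the opposite strand, whose count was 0.0705% of that of Psmd5.

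Of the other 6 chaperones 0 passed the test in this comparison, among them Psmd9 and Psmd10, which act on the same base. In the core and the 19S particle, 13 of 14 and 16 of 17 values were above 0, with medians of 0.08 and 0.05 on the log2 scale and −0.01 over all genes. Members without overlap were 10 of 45 on the higher side, against 13.2% of all genes, and 1 on the lower side, against 9.55%. Psmb5 had 83.0, 82.4 and 79.0, a difference of 0.02 (interval −0.097 to 0.14). Psmb6 had 99.2, 103 and 93.9, a difference of 0.08, and Psmb7 had 79.4, 80.5 and 75.7, a difference of 0.09. None of the 3 catalytic subunits passed the test.

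**Figure D4:**
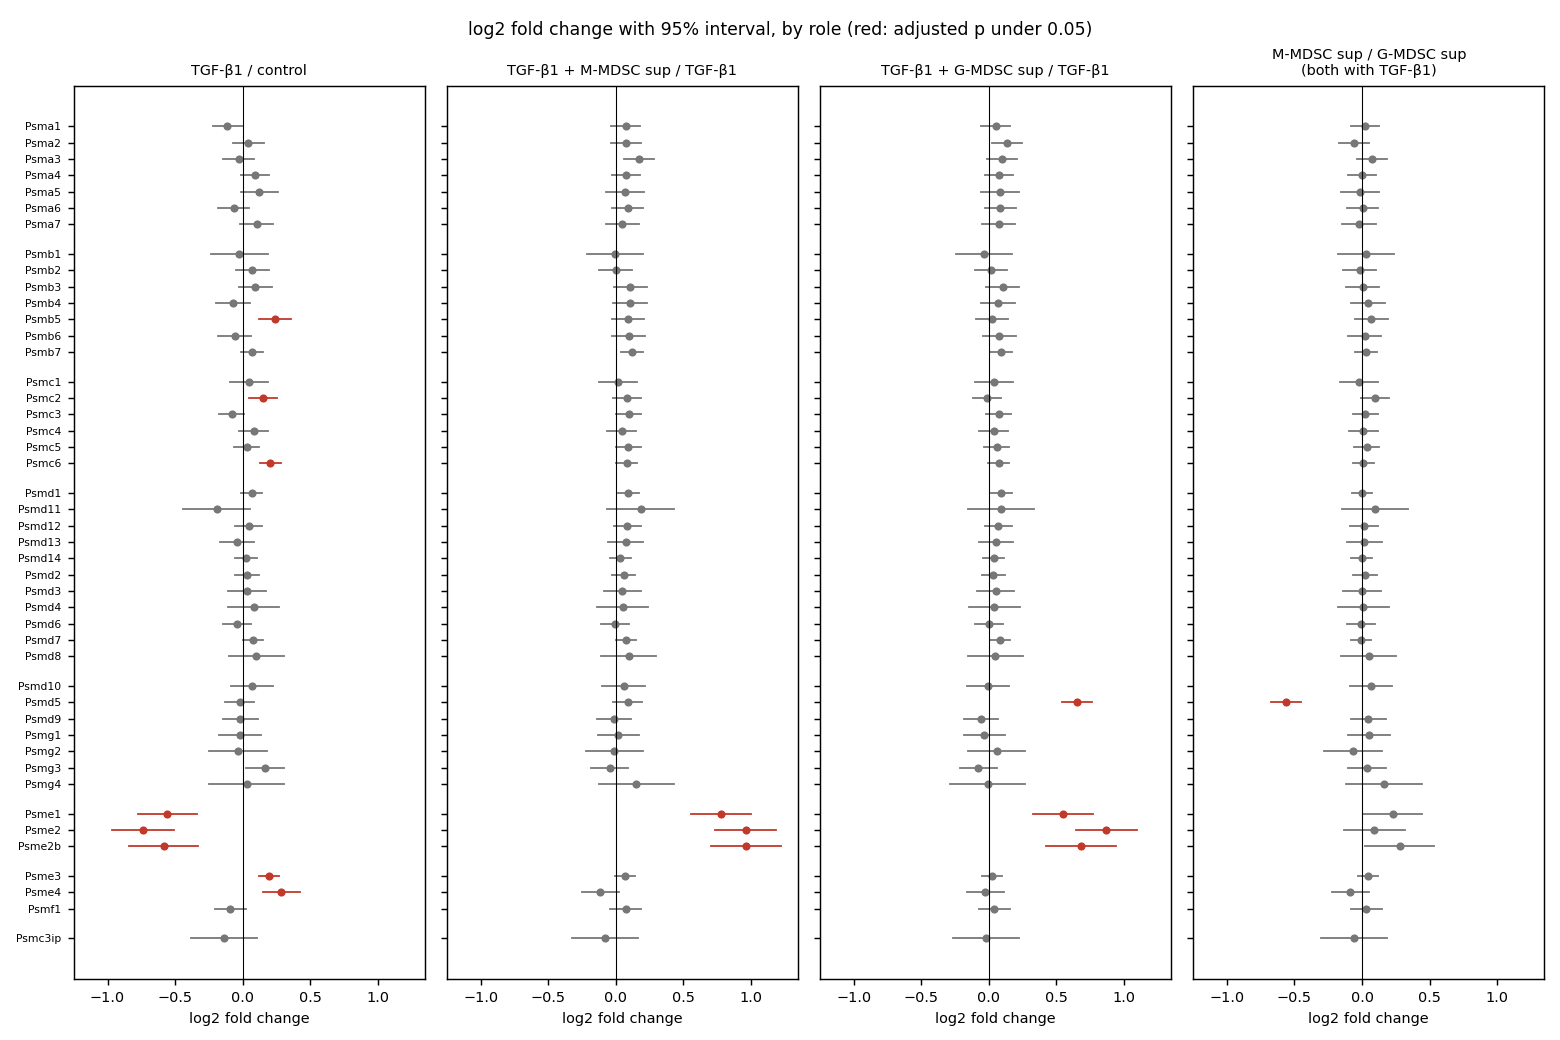
The log2 fold change of the 45 members tested with its 95% interval, ordered by role from the α ring at the top, in 4 comparisons; red marks an adjusted p under 0.05. The activator genes lie left of 0 with TGF-β1 and right of 0 with either supernatant, and Psmd5 stands apart in both comparisons that involve G-MDSC supernatant.

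The supernatants were then compared with each other, both in the presence of TGF-β1. Psmd5 had its lower level under M-MDSC supernatant, and the other 44 members tested did not pass. The log2 fold change of Psmd5 was −0.56 (SE 0.049, adjusted p = 0.00184), and it was 1 of 15 genes called among 12016 (0.125%; 0.0999% higher and 0.0250% lower). By the study's fold rule 0 members and 0.549% of all genes passed. At an unadjusted p under 0.05, 3 of 45 members and 6.33% of all genes passed. Those 3 were Psmd5, Psme1 and Psme2b. Psme1 was higher with M-MDSC supernatant by 0.23 (interval 0.0082 to 0.45, adjusted p = 0.768), and its libraries did not overlap. Psme2b differed by 0.28 (interval 0.024 to 0.54, adjusted p = 0.746), also without overlap, and Psme2 by 0.09 (interval −0.13 to 0.32), with overlap. Differences of this size between the supernatants were not resolved with 3 libraries per group. No core interval reached beyond 0.882-fold or 1.18-fold (both Psmb1). The kidney tubule sums of the M-MDSC and G-MDSC libraries overlapped, as given above.

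Set against Control, both supernatant groups had more members called than TGF-β1 in edgeR's test, all of them higher. DESeq2 called 17 with M-MDSC, 14 with G-MDSC supernatant and 8 with TGF-β1 (37.8%, 37.3% and 36.5% of all genes). The order did not hold with limma on log2(FPKM + 1), which called 9, 10 and 10 (35.4%, 34.8% and 35.0% of all genes). In edgeR's test, 13 of 45 rose with M-MDSC supernatant and 0 fell, where 35.2% of all genes were called (16.4% higher, 18.9% lower). They comprised 5 core genes, 6 of the 19S particle, Psme2b and Psme3. The highest were Psme2b at 0.38 (SE 0.12, a call lost without Control replicate 1 or 3 or M-MDSC replicate 2 or 3, where it was 0.32 to 0.36), Psmb5 at 0.33 (SE 0.054), Psmc6 at 0.29 (SE 0.035) and Psme3 at 0.26 (SE 0.034). Psmb5, at 1.26-fold, had the highest fold change of the core and the 19S particle. Psme1 and Psme2 differed from Control by 0.22 and 0.23, with adjusted p of 0.113 and 0.116 in edgeR's test, and their libraries overlapped. Without Control replicate 1, Psme2 passed, at 0.33 (adjusted p = 0.0286).

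With G-MDSC supernatant 14 of 45 rose against Control and 0 fell, where 34.8% of all genes were called (16.4% higher, 18.4% lower). These were 7 core genes, 4 of the 19S particle, Psmd5, Psme3 and Psme4. Psmd5 rose by 0.63 (SE 0.049), Psmc6 by 0.28 (SE 0.035), Psmb5 by 0.26 (SE 0.054) and Psme4 by 0.26 (SE 0.062). Psme1 differed from Control by −0.01 (interval −0.23 to 0.21) and Psme2 by 0.13 (interval −0.092 to 0.36), and neither passed. Under M-MDSC supernatant the medians were 0.13 in the core and 0.12 in the 19S particle, and under G-MDSC supernatant they were 0.12 and 0.09, against 0.00094 and 0.0013 over all genes. By the study's fold rule 0 members passed for either supernatant, against 6.98% (M-MDSC) and 6.80% (G-MDSC) of all genes. The count with M-MDSC supernatant went from 13 to 8 without Control replicate 3 or without the M-MDSC replicate 3. The count with G-MDSC supernatant went from 14 to 8 without Control replicate 1 or without G-MDSC replicate 1 or 2. These counts rest on changes that 1 library can take past the threshold. The share of all genes called without these libraries is not given, so whether the drops are particular to the members was not tested.

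The inducible counterparts of the catalytic subunits were a small share of the catalytic β FPKM, and that share was lowest with TGF-β1. Psmb8, Psmb9 and Psmb10 together took 3.43% ± 0.282 (SD, n = 3) in Control, 1.74% ± 0.0127 with TGF-β1, 4.53% ± 0.161 under M-MDSC supernatant and 3.45% ± 0.0694 under G-MDSC supernatant. Psmb10, which replaces Psmb7, had 6.49, 8.28 and 7.12 FPKM in Control and 3.90, 4.03 and 4.10 with TGF-β1, and fell by 0.81 on the log2 scale (SE 0.11, adjusted p = 0.000192). With M-MDSC supernatant it had 10.8, 8.32 and 9.42 and rose by 1.22 (SE 0.11, adjusted p = 5.3e-05), and with G-MDSC supernatant it had 7.10, 6.82 and 6.79 and rose by 0.76 (SE 0.11, adjusted p = 0.00197). Every TGF-β1 library was thus below every other library. Against Control, Psmb10 was higher by 0.42 with M-MDSC supernatant (adjusted p = 0.0119, and 0.00212 to 0.0595 over the alternatives, the highest with only the groups compared in the fit), and the difference with G-MDSC supernatant was −0.05 (interval −0.29 to 0.19). Between the supernatants, its libraries did not overlap and lay higher by 0.47 with M-MDSC, a difference that did not pass the test in edgeR (adjusted p = 0.211, and 0.018 to 0.487 over the alternatives) and passed in DESeq2 alone.

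Psmb8, which replaces Psmb5, was low throughout, at 0.796, 1.01 and 0.970 FPKM in Control and 0.241, 0.138 and 0.245 with TGF-β1. It had 1.85, 2.93 and 2.53 with M-MDSC and 1.82, 1.85 and 1.64 with G-MDSC supernatant. It fell by 2.06 with TGF-β1 (SE 0.23), rose by 3.49 with M-MDSC (SE 0.24) and by 3.02 with G-MDSC supernatant (SE 0.24) on the log2 scale. With limma on log2(FPKM + 1), which compresses changes of genes this low, these values were −0.67, 1.497 and 1.20, and over all alternatives each call held. Psmb8 was also above Control, by 1.43 with M-MDSC (adjusted p = 0.000449) and by 0.96 with G-MDSC supernatant (adjusted p = 0.00557), and the difference between the supernatants did not pass the test (0.47, interval −0.011 to 0.94). Psmb9, which replaces Psmb6, was not tested, with 57, 138 and 152 counts in Control, 45, 17 and 34 with TGF-β1, 201, 185 and 184 with M-MDSC and 222, 202 and 142 with G-MDSC supernatant. Psmb5 FPKM was above that of Psmb8 in every library.

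Other genes of the pathway were taken from a list of 30 (19S subunits with other names, ubiquitin genes, shuttles, assembly factors and transcription factors of proteasome genes), of which 28 were tested. With TGF-β1, 5 rose and 3 fell, where 34.0% of all genes tested were called (16.1% higher, 17.9% lower), so the list's share was not above that of all genes. DESeq2 called 9 of them and limma on log2(FPKM + 1) 6, and of all genes 36.5% and 35.0%. Among those that rose, the shuttles Ubqln1 and Ubqln2, which carry ubiquitinated proteins to the proteasome, did so by 0.32 and 0.28, Ecpas, a proteasome adaptor, by 0.14, and Uba1, the ubiquitin-activating enzyme, by 0.09. Nfe2l2, a transcription factor of the antioxidant response, fell by 0.48 (SE 0.038, adjusted p = 2.9e-06). Ngly1, which processes the transcription factor Nfe2l1, fell by 0.49 (SE 0.12), and Akirin2, which takes proteasomes into the nucleus, by 0.15 (SE 0.048). Against TGF-β1 alone, edgeR called 0 of the 28 with either supernatant, and 3 with M-MDSC and 4 with G-MDSC supernatant had an unadjusted p under 0.05, as had 16.7% and 17.2% of all genes. DESeq2 and limma also called 0 with either. Against Control, 6 of the 28 were called with each supernatant, where 35.2% of all genes were called with M-MDSC and 34.8% with G-MDSC supernatant, so the list's share was below that of all genes. These were Rad23b, Txnl1, Ubqln1 and Ubqln2, which were higher, and Nfe2l2 and Ngly1, which were lower. DESeq2 called 8 with each, against 37.8% and 37.3% of all genes, and limma 6 with each, against 35.4% and 34.8%.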

How the data were processed

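The 12 libraries, 3 per group, were poly(A)-selected and made with dUTP second-strand marking. Per the submitters' processing notes and the methods, reads were trimmed (cutadapt 1.9, fastp), aligned to GRCm38 with HISAT2 2.0.4 and assembled with StringTie 1.3.4d. The authors deposited 1 table with raw counts per gene and library and with FPKM, which they calculated from the counts per gene length and library total; a count of 0 is written as an FPKM of 0.0001. The counting tool and its strand setting are not given in the sources used here, so reads of overlapping genes cannot be told apart where strand was ignored. Of the members, 21 overlap another gene, and in 6 an overlapping gene had over 5% of the member's count: Psma2 (10.0%), Psmb7 (32.6%, Nek6), Psmc3 (32.9%, Slc39a13), Psmd13 (28.8%), Psme2b (36.4%) and Psmc3ip (78.8%, Mlx).

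Here, counts were fitted with edgeR 4.0.16 (R 4.3.3) with TMM scaling, all 4 groups in 1 fit, the two-sided quasi-likelihood F test and Benjamini-Hochberg adjustment over the 12016 genes that reached an FPKM of 1 in 3 or more of the 12 libraries. Levels, sums and shares are FPKM. In all, 0 library pairs held identical values. Averaged over genes, the squared difference between libraries of 1 group was 45.0 to 62.7 times the variance from counting error. This average does not show whether depth limited genes with low counts. Low counts pile up at multiples of 4 (44.3% of the nonzero counts up to 12 are 4, 8 or 12). The test was tested on simulated data for TGF-β1 against Control with 12016 genes: it called 43 of 50 genes changed 2-fold, 17 of 50 at 1.5-fold and 1 of 50 at 1.25-fold, with 3 false calls of 11816. The changed genes were few and drawn from all genes tested, whereas 34.0% of all genes were called in the real comparison. The median SE there was 0.055 over members and 0.097 over all genes, so these rates do not describe the members.

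Named were Psme1, Psme2, the catalytic subunits and their inducible counterparts, up to 4 called members with the highest and lowest log2 fold change per comparison, the highest and lowest member by level in each role, members not tested, and called genes of the pathway list; Psmc2, Uba1, the named promoter matches and the genes at the ends of intervals were added with their values seen. Members and lists were chosen with earlier results of these data known, so no test of a list is given. Alternatives were the study's fold rule, no filter, upper-quartile, median-ratio and library-size scaling, DESeq2 1.42.0, limma 3.58.1 on log2(FPKM + 1) and log2(FPKM + 0.1), only the groups compared, a replicate block, counts divided by 4, and leaving out each library. Python 3.11.15 with pandas 2.3.3 was used for summaries, and promoters were matched by symbol. Values of 1 called gene of the pathway list are not reported here.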

Additional observations from a re-analysis of the deposited data

Results flagged for a closer look

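Psmd5 differed between the supernatants, and this difference was itself tested. Its log2 fold change of TGF-β1/M-MDSC over TGF-β1/G-MDSC supernatant was −0.56 (edgeR, adjusted p = 0.00184), with 3 of 3 M-MDSC libraries below every G-MDSC library, and 1 member of 45 met this mark.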

How the results depend on the processing

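The falls of Psme1, Psme2 and Psme2b with TGF-β1, their rises with both supernatants and the calls of Psmd5 kept their direction and stayed past the threshold in every alternative fitted with an adjusted p. By the study's fold rule 0 members were called in each of the 6 comparisons. Against Control, M-MDSC supernatant had 8 members called with upper-quartile scaling and G-MDSC supernatant 9 with library size alone. The 19S median with TGF-β1 was −0.017 with library size alone and −0.014 with limma on either pseudocount, and that of M-MDSC supernatant against Control was 0.086, 0.088 (pseudocount 1) and 0.089 (0.1). The inducible share computed from counts was 3.30% in Control, 1.59% with TGF-β1, 3.64% with G-MDSC and 4.76% with M-MDSC supernatant. Leaving out each library gave 7 to 9 members called with TGF-β1, 3 to 4 with M-MDSC and 4 to 4 with G-MDSC supernatant against TGF-β1, 1 to 1 between the supernatants, and 8 to 15 for M-MDSC and 8 to 15 for G-MDSC supernatant against Control. Core medians then ranged from 0.0085 to 0.084 (TGF-β1), 0.056 to 0.14 and 0.045 to 0.12 (M-MDSC and G-MDSC against TGF-β1), −0.022 to 0.037 (between supernatants), 0.11 to 0.14 and 0.097 to 0.16 (against Control), and 19S medians, in the same order, from −0.00082 to 0.063, 0.049 to 0.11, 0.027 to 0.11, 0.00086 to 0.030, 0.077 to 0.13 and 0.079 to 0.12. Without TGF-β1 replicate 3 the 19S median with TGF-β1 was −0.00082, the core median of M-MDSC supernatant against TGF-β1 0.14 and the 19S median of G-MDSC supernatant against TGF-β1 0.11. The inducible share stayed at 3.29% to 3.57% in Control, 1.74% to 1.75% with TGF-β1, 4.45% to 4.61% with M-MDSC and 3.41% to 3.48% with G-MDSC supernatant. Same-numbered libraries did not deviate together (correlations −0.105 to 0.0743 over 18 pairs). This does not exclude that the numbers pair samples, and the labels do not say what they stand for. The fit with the replicate block called 7 members with TGF-β1, 3 and 4 with M-MDSC and G-MDSC supernatant against TGF-β1, 1 between supernatants, and 12 and 13 against Control. The share of all genes called is not given for these alternative fits. Whether shifts in their member counts are particular to the members was not tested. Of 1210 values of single genes that were called in the fit reported, 118 lost their call under an alternative. Of 1958 values of genes not called, 15 gained one. None turned its direction with a call, and the cause was not tested.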

Other observations

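Nfe2l1, which encodes a transcription factor of proteasome genes, had FPKM of 46.5, 8.80 and 8.79 in Control, 10.9, 12.8 and 10.8 with TGF-β1, 11.9, 56.4 and 11.6 with M-MDSC supernatant and 12.4, 10.6 and 13.2 with G-MDSC supernatant. Control replicate 1 and M-MDSC replicate 2 thus stood apart, and the fitted log2 fold change with TGF-β1, −0.83, ranged from −1.21 to 0.43 over the alternatives and was called in 0 of them.

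Of the 5 pseudogene rows with -ps names, Psma5-ps was the highest, at 9.26 to 13.8 FPKM over the 12 libraries, and the others were at most 0.389. Psmc3ip, matched by name only, passed the test in 0 of the 6 comparisons.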
